A study of Oncorhynchus mykiss with 12 samples.

Results

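The cytochrome b561 family was followed across dorsal skin of yellow mutant and wild-type rainbow trout (Oncorhynchus mykiss). Its members were the entries of the RNA-Seq table whose gene symbol, ignoring case, begins with cyb561 or is cybrd1. This gave 8 of 42290 entries, a pair each of cyb561a3, cyb561 and cybrd1 copies and 1 copy each of cyb561d1 and cyb561d2. The family was selected on the measured difference of 1 of these copies, cyb561a3 (gene 110522835), in this same comparison. That copy had the largest difference of the 8 on the log2 scale. Its values are therefore given as a description with no test, while the other copies entered by name alone.

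Yellow mutant trout are a body colour variety of the species. The labels put 3 RNA-Seq samples in the yellow mutant group and 3 in the wild-type group, and name no treatment, age or sex for either. The series text describes the compared fish as first-generation offspring of wild-type males and yellow mutant females, so both groups share that cross, and how 2 genotypes arose within it is not explained in the sources used here. The labels do not say whether a sample is 1 fish or a pool, and p-values therefore measure only the spread between these samples. Whole skin holds many cell types, and fewer cells of a type cannot be told apart from less RNA per cell.

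Proteins of the cytochrome b561 family sit in membranes and carry electrons from ascorbate (vitamin C) on one side to an acceptor on the other, through bound haem. In mammals CYB561 is the cytochrome of chromaffin granules, where it regenerates ascorbate inside secretory vesicles for hormone-making monooxygenases. CYBRD1, also called duodenal cytochrome b, reduces ferric iron at the cell surface before uptake, and CYB561A3 is a lysosomal member studied as an ascorbate-dependent ferric reductase. The roles of CYB561D1 and CYB561D2 are less well known. None of these roles was measured here. Trout carry many gene pairs from an ancient genome duplication, and the sources used here do not tell how a read that fits both copies was counted. A value of 1 copy may thus hold reads of its twin.

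Levels are given as FPKM, a fragment count divided by transcript length and by the library's mapped fragments, so that genes can be compared with each other. The columns summed to 427396 to 428561 FPKM in yellow mutant and to 396278 to 423124 FPKM in wild-type libraries. Absolute depth is unknown. Relative to wild-type replicate 1, depth read from the steps of low values was 1.01, 0.582 and 0.810 in yellow mutant replicates 1, 2 and 3, and 0.943 and 0.902 in wild-type replicates 2 and 3. Markers of the labelled tissue were present, with the keratinocyte list (31 entries, keratins and cell junction genes) summing to 2269 to 2786 FPKM in yellow mutant and to 1823 to 2252 FPKM in wild-type skin.

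The copy of cyb561a3 that led to the choice of the family, gene 110522835, had 18.1, 8.93 and 19.9 FPKM in yellow mutant replicates 1, 2 and 3, against 0.466, 0.629 and 1.32 FPKM in wild-type replicates 1, 2 and 3. Every yellow mutant library lay above every wild-type library, and the lowest yellow mutant value was that of replicate 2, the shallowest library. The means were 15.6 ± 5.88 FPKM in yellow mutant and 0.804 ± 0.452 FPKM in wild-type skin (SD, n = 3 each). The ratio of these means was 19.5. On the log2(FPKM + 1) scale, which understates differences of low genes, the difference was 3.16. The authors' deposited table gives 4.28 as the log2 ratio of the means. Within a genotype the copy varied widely, 2.22-fold between the highest and the lowest yellow mutant library and 2.83-fold between the highest and the lowest wild-type library.

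Among the 27268 genes tested, which had at least 0.5 FPKM in at least 3 of the 6 samples, the mean of this copy stood above 90.8% of genes in yellow mutant skin and above 9.67% of genes in wild-type skin. The same copy was thus among the more abundant of the tested genes in yellow mutant skin and near their low end in wild-type skin. The table holds 42290 entries, and those that did not pass the filter are not in this ranking.

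**Figure D1:**
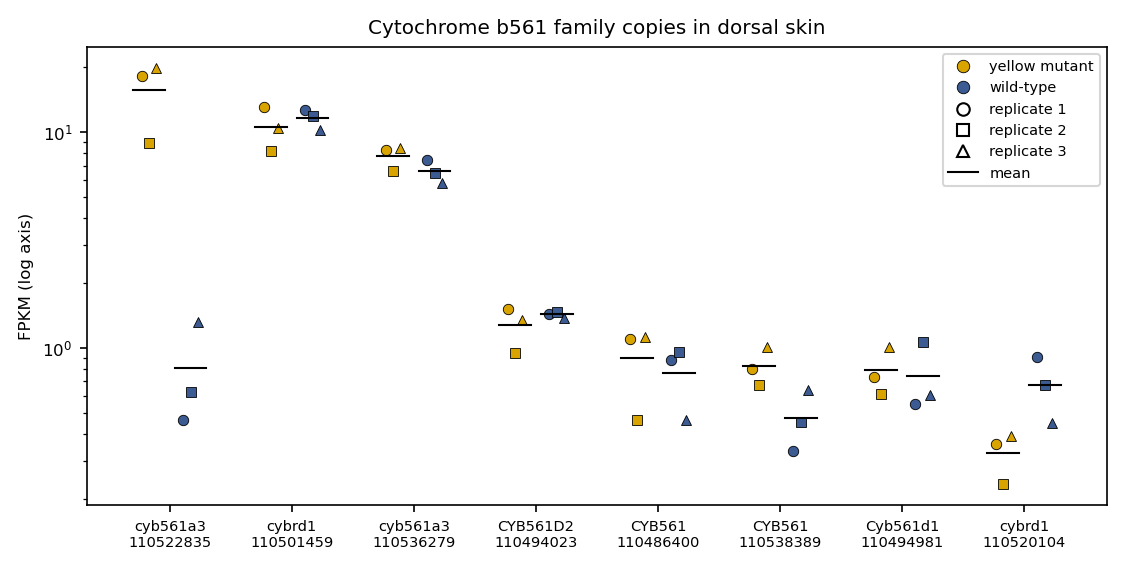
FPKM of the 8 family copies (log axis) in each library, with yellow mutant libraries left of wild-type libraries, 1 symbol per replicate and a bar at the mean. Only cyb561a3 (gene 110522835) shows groups far apart, at 8.93 to 19.9 FPKM in yellow mutant and 0.466 to 1.32 FPKM in wild-type skin, and the square of replicate 2 is the lowest yellow mutant point of every copy.

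The second copy of cyb561a3, gene 110536279, had 8.25, 6.62 and 8.48 FPKM in yellow mutant replicates 1, 2 and 3, and 7.41, 6.49 and 5.84 FPKM in wild-type replicates 1, 2 and 3. The groups overlapped. Its means of 7.78 ± 1.01 and 6.58 ± 0.789 FPKM in yellow mutant and wild-type skin (SD, n = 3 each) gave a log2 difference of 0.21 ± 0.15 (SE, adjusted p = 0.909 by limma and Benjamini-Hochberg). The 95% interval of that difference, from -0.14 to 0.56, leaves room for a modest change either way. Summed over both copies, cyb561a3 reached 26.4, 15.5 and 28.3 FPKM in yellow mutant replicates 1, 2 and 3. In wild-type replicates 1, 2 and 3 it reached 7.87, 7.12 and 7.15 FPKM. Adding copies evens out a split of shared reads only if each such read was counted once, which is not known here. The sum was 3.17-fold higher in yellow mutant skin, and this figure again contains the copy chosen for its difference.

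The other ferric reductase gene, cybrd1, was carried almost wholly by gene 110501459. It had 13.1, 8.16 and 10.5 FPKM in yellow mutant replicates 1, 2 and 3, and 12.6, 11.9 and 10.3 FPKM in wild-type replicates 1, 2 and 3. The groups overlapped, with a log2 difference of -0.14 and a 95% interval from -0.57 to 0.29 (limma, Benjamini-Hochberg adjusted p = 0.957). Without yellow mutant replicate 2 the difference was 0.018.

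The low cybrd1 copy, gene 110520104, had 0.359, 0.234 and 0.391 FPKM in yellow mutant replicates 1, 2 and 3, against 0.906, 0.673 and 0.451 FPKM in wild-type replicates 1, 2 and 3. All yellow mutant values lay below all wild-type values, at means of 0.328 ± 0.0830 FPKM in yellow mutant and 0.677 ± 0.228 FPKM in wild-type skin (SD, n = 3 each). This copy did not pass the filter on low values and had no test among the 27268 genes. With no filter, over 38600 genes, its log2 difference was -0.33 ± 0.13 (SE) and did not pass (adjusted p = 0.863, unadjusted p = 0.0401, limma). Summed over both copies, cybrd1 stood at 10.9 ± 2.54 FPKM in yellow mutant and 12.3 ± 1.44 FPKM in wild-type skin (SD, n = 3 each).

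Both copies of cyb561, the chromaffin granule cytochrome of mammals, were low. Gene 110538389 had 0.798, 0.671 and 1.01 FPKM in yellow mutant replicates 1, 2 and 3, against 0.335, 0.454 and 0.639 FPKM in wild-type replicates 1, 2 and 3. The groups did not overlap, although the closest pair of libraries was 0.671 against 0.639 FPKM. Its log2 difference of 0.31 ± 0.14 (SE) did not pass (adjusted p = 0.857, unadjusted p = 0.0616, limma). Gene 110486400 had 1.11, 0.464 and 1.12 FPKM in yellow mutant replicates 1, 2 and 3, and 0.879, 0.963 and 0.462 FPKM in wild-type replicates 1, 2 and 3. Here yellow mutant replicates 1 and 3 lay above the wild-type range and replicate 2 lay inside it, so the groups overlapped. The log2 difference was 0.09, with a 95% interval from -0.36 to 0.54 (limma, Benjamini-Hochberg adjusted p = 0.974).

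In mammals CYB561 works beside dopamine beta-hydroxylase in the vesicles of chromaffin cells and neurons. Genes of catecholamine and granule biology ranged widely in this skin. dbh (gene 110536983), the hydroxylase itself, was listed at 0 in all 6 libraries, th (gene 110490795), the first enzyme of catecholamine synthesis, reached at most 0.015 FPKM, and chga (gene 110529746), a granule protein, at most 0.166 FPKM. Ddc (gene 110485968), a decarboxylase of amine synthesis, reached at most 0.598 FPKM. scg3 (gene 110526920), a granule protein, reached at most 0.560 FPKM, and SLC18A2 (gene 110502420), a vesicle amine transporter, at most 0.550 FPKM. Means of Ddc, scg3 and SLC18A2 were 0.449, 0.261 and 0.358 FPKM in yellow mutant and 0.309, 0.456 and 0.304 FPKM in wild-type skin. In each genotype these lay below the means of both CYB561 copies, but the order did not hold in every library. In wild-type replicate 1 scg3 had 0.430 FPKM and CYB561 (gene 110538389) 0.335 FPKM. In yellow mutant replicate 2 SLC18A2 had 0.550 FPKM and CYB561 (gene 110486400) 0.464 FPKM. Of 24 neuroendocrine and chromaffin entries, 7 were listed at 0 throughout and 1 was tested, the prohormone convertase gene pcsk2 (gene 110528870), at 10.3 FPKM in yellow mutant and 13.6 FPKM in wild-type skin. Summed over the list, levels were 8.93 to 14.5 FPKM in yellow mutant and 11.5 to 19.5 FPKM in wild-type skin. Most of each sum was pcsk2 (gene 110528870), at 6.43 to 12.8 FPKM in yellow mutant and 9.2 to 17.2 FPKM in wild-type libraries.

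The members named only for their cytochrome b561 domain overlapped between the groups. CYB561D2 (gene 110494023) had 1.52, 0.944 and 1.36 FPKM in yellow mutant replicates 1, 2 and 3, and 1.45, 1.47 and 1.38 FPKM in wild-type replicates 1, 2 and 3. The wild-type libraries lay within 1.07-fold of each other and inside the yellow mutant range. The log2 difference was -0.11, with a 95% interval from -0.44 to 0.23 (limma, Benjamini-Hochberg adjusted p = 0.959), and 0.0029 without yellow mutant replicate 2. Cyb561d1 (gene 110494981) had 0.735, 0.611 and 1.02 FPKM in yellow mutant replicates 1, 2 and 3, and 0.549, 1.06 and 0.608 FPKM in wild-type replicates 1, 2 and 3. Its groups overlapped, with a log2 difference of 0.04 and a 95% interval from -0.33 to 0.42 (limma, Benjamini-Hochberg adjusted p = 0.989).

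Over all genes tested, 9 of 27268 were called higher (0.0330%) and 0 were called lower, with 707 lower genes (2.59%) at an unadjusted p under 0.05 (limma, Benjamini-Hochberg adjustment at 0.05). Of the 6 tested copies other than gene 110522835, 0 passed, and their smallest unadjusted p was that of CYB561 (gene 110538389). The authors' deposited table gives each of the 7 other copies an FDR of 0.99987. Groups did not overlap in 3 of the 8 copies. Among these, gene 110522835 was chosen for its difference, so its separation cannot be weighed against a background share. The others were the low cybrd1 copy, which did not pass the filter, and CYB561 (gene 110538389). The closest libraries of that CYB561 copy were 0.671 FPKM in yellow mutant and 0.639 FPKM in wild-type skin. Groups did not overlap in 9.47% of all entries in the table, and no difference from that share was tested.

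**Figure D2:**
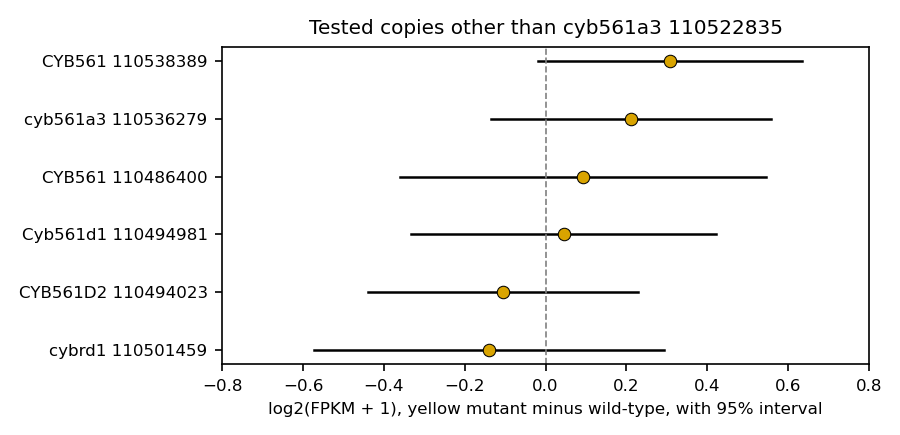
Difference in log2(FPKM + 1), yellow mutant minus wild-type, for the 6 tested copies other than cyb561a3 (gene 110522835), with 95% intervals from limma (n = 3 each). All 6 intervals include 0, and the points run from -0.14 for cybrd1 (gene 110501459) to 0.31 for CYB561 (gene 110538389).

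The order of the highest levels within the family differed between the genotypes only through gene 110522835, the copy chosen for its difference. In each yellow mutant library gene 110522835 was the highest copy, followed by cybrd1 (gene 110501459) and then cyb561a3 (gene 110536279). In each wild-type library cybrd1 (gene 110501459) was the highest, followed by cyb561a3 (gene 110536279) and CYB561D2. With gene 110522835 set aside, these were the 3 highest copies, in the same order, in each yellow mutant library too. Over libraries, the ranges of the 3 highest yellow mutant copies overlapped in neighbouring pairs, while the 3 highest wild-type copies were clearly apart. Most low copies were not separable by level. In yellow mutant skin the low cybrd1 copy lay below all others, while Cyb561d1 and the pair of CYB561 copies averaged 0.787 to 0.897 FPKM. In wild-type skin Cyb561d1, the CYB561 copies and the low cybrd1 copy averaged 0.476 to 0.768 FPKM. The wild-type mean of gene 110522835, 0.804 FPKM, was just above these, and its libraries, at 0.466 to 1.32 FPKM, overlapped theirs.

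The whole family summed to 38.1 ± 9.95 FPKM in yellow mutant and 23.1 ± 1.90 FPKM in wild-type skin (SD, n = 3 each). Gene 110522835 held 33.5% to 45.5% of that sum in yellow mutant libraries and 1.89% to 6.28% in wild-type libraries. The main cybrd1 copy, gene 110501459, held 23.9% to 30.7% in yellow mutant and 49.0% to 51.3% in wild-type libraries. Its own level overlapped between the groups, as given above. Without gene 110522835 the remaining 7 copies summed to 22.5 ± 4.25 FPKM in yellow mutant and 22.3 ± 2.35 FPKM in wild-type skin (SD, n = 3 each), a ratio of means of 1.01.

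**Figure D3:**
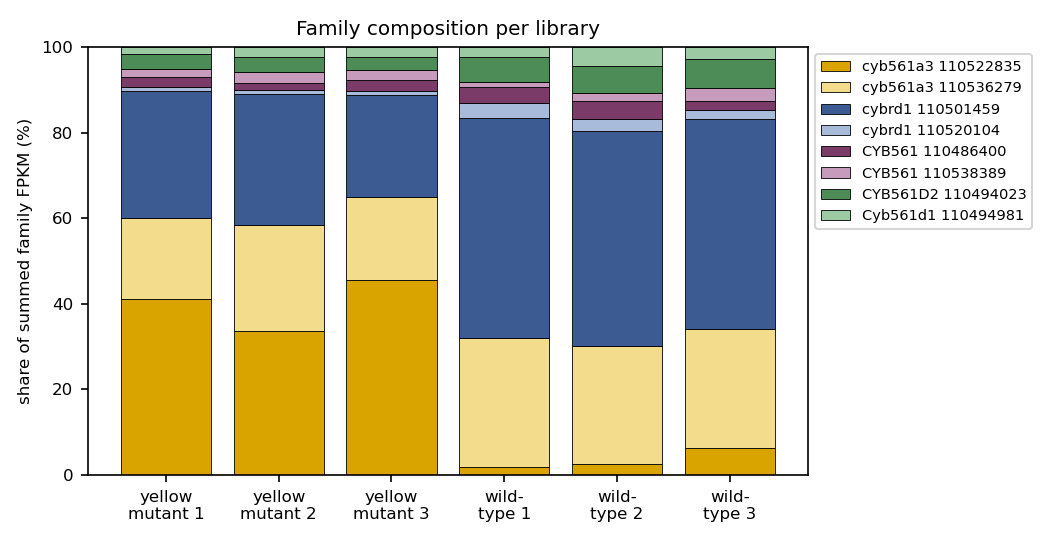
Share of the summed family FPKM (%) held by each copy in each library, yellow mutant libraries on the left and wild-type libraries on the right. The lowest segment, cyb561a3 (gene 110522835), takes 33.5% to 45.5% in yellow mutant and 1.89% to 6.28% in wild-type libraries.

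Variation inside the yellow mutant group was shared by the family, though not by it alone. All 8 copies had their lowest yellow mutant value in replicate 2, whereas 37.3% of all genes tested had theirs in that library. The copies stood in replicate 2 at 0.417 to 0.791 times the mean of the other yellow mutant libraries, with a median of 0.675, and the median of all genes tested was 0.977. Sums of the STEAP, iron, lysosome, neuroendocrine, nerve, endothelial, keratinocyte and pigment cell lists given elsewhere were also lowest in replicate 2. Those of the ascorbate transport, oxygenase, macrophage, lymphocyte, erythrocyte and skeletal muscle lists were lowest in replicate 3. Replicate 2 also had the lowest relative depth (0.582). FPKM are scaled to depth, and the part of depth in this pattern was not tested. In wild-type skin the lowest value fell in replicate 1 for 3 copies and in replicate 3 for 5 copies.

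The genes next to each copy were read from the order of genes in RefSeq assembly USDA_OmykA_1.1, used for order only because no source used here names the build behind the deposited values. The nearest 3 table genes on either side of gene 110522835 were trappc13, zgc:193801 and an unnamed gene on one side and tnfrsfa, Unc5d and aqp3b on the other. aqp3b (gene 110523491), a water and glycerol channel gene, had 198.4, 94.0 and 184.7 FPKM in yellow mutant replicates 1, 2 and 3, and 117.1, 116.6 and 159.1 FPKM in wild-type replicates 1, 2 and 3. tnfrsfa (gene 110523488), a tumour necrosis factor receptor gene, averaged 5.94 FPKM in yellow mutant and 5.42 FPKM in wild-type skin. Both genes overlapped between the genotypes.

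Of these 6 neighbours 5 were tested, with log2 differences from -0.05 to 0.24, and 0 had an unadjusted p under 0.05 (smallest Benjamini-Hochberg adjusted p = 0.900, limma). The large difference at gene 110522835 was thus not seen in the genes beside it. Around all 8 copies, 35 of 48 neighbours were tested, with log2 differences from -0.40 to 0.27 and 0 with an unadjusted p under 0.05.

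Copies of one symbol lay in matching surroundings to different degrees. Within 10 table genes on either side, both CYB561 copies shared 14 neighbour symbols, among them HDAC5, lsm12a and MRTFA. Both cybrd1 copies shared 8, among them dlx1a, dlx2a and Slc25a12. The cyb561a3 copies shared 1, Unc5d, a netrin receptor gene. Symbols were matched by their letters, so similar symbols that are spelled differently were not counted. Between Unc5d and each cyb561a3 copy lay tnfrsfa (gene 110523488) at gene 110522835 and Tnfrsf26 (gene 110536280) at gene 110536279. TANC2 and tanc2a beside the CYB561 copies, and DYNC1I2 and dync1i2a beside the cybrd1 copies, were missed in the same way. A shared symbol is a description of gene order only.

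**Figure D4:**
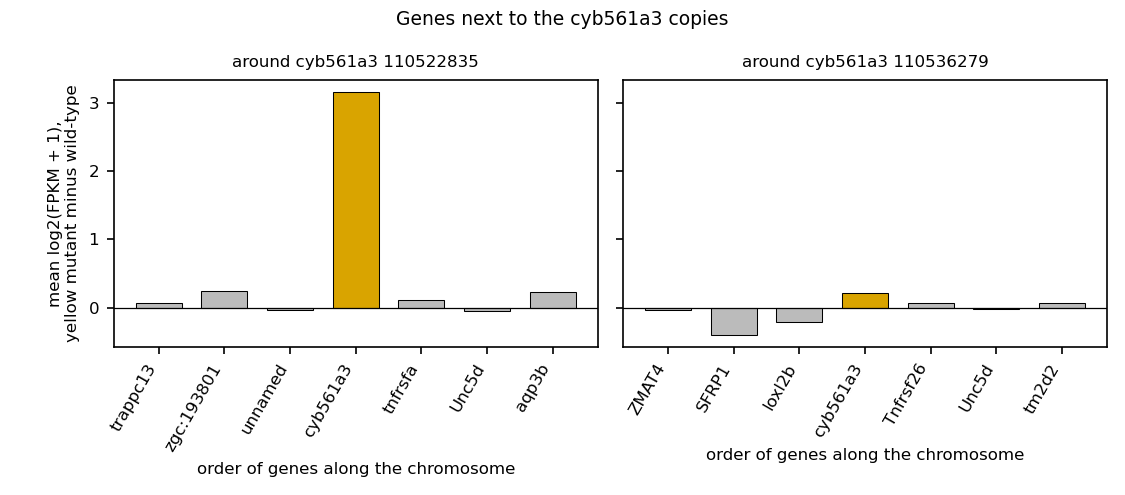
Mean difference in log2(FPKM + 1), yellow mutant minus wild-type, for each cyb561a3 copy (coloured) and the 3 table genes on either side in chromosome order (grey). The bar of gene 110522835 reaches 3.16, while its tested neighbours lie between -0.05 and 0.24.

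The genes whose profile over the 6 samples was nearest to that of gene 110522835 were found by the root mean square difference of log2(FPKM + 1), each gene taken relative to its own mean. Genes with a mean of at least 1 FPKM were ranked, 23478 in all, with a median distance of 1.63. The nearest gene with an informative name was prph (gene 110494199), the intermediate filament gene plasticin, at a distance of 0.589. It had 4.58, 3.51 and 7.66 FPKM in yellow mutant replicates 1, 2 and 3, against 0.352, 0.374 and 0.520 FPKM in wild-type replicates 1, 2 and 3. Like gene 110522835, prph was lowest in replicate 2 and highest in replicate 3 of the yellow mutant libraries, an order that enters the distance itself.

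Next came Gch1 (gene 110502330), the entry enzyme of pteridine synthesis, at 0.666, and S100a4 (gene 110517409), a calcium-binding protein gene, at 0.732. bscl2 (gene 110534923), which encodes the lipid droplet protein seipin, was at 0.785 and had 1.71, 3.11 and 6.83 FPKM in yellow mutant replicates 1, 2 and 3, against 0.027, 0.199 and 0.030 FPKM in wild-type replicates 1, 2 and 3. The others, at distances of 0.833 to 0.886, were GNG3 (gene 110533984), a G protein subunit gene, fabp4b (gene 110505566), a fatty acid carrier gene, tspan36 (gene 110525244), a tetraspanin gene, plin6 (gene 110486293), a lipid droplet coat gene, mc5ra (gene 110496762), a melanocortin receptor gene, and AKR1B1 (gene 110490237), an aldose reductase gene. Genes near this profile necessarily differ between the genotypes, and all 10 were higher in yellow mutant skin, by 3.13-fold to 45.5-fold in the ratio of means. Within the yellow mutant libraries, Gch1 and tspan36 were also lowest in replicate 2 and highest in replicate 3. mc5ra was lowest in replicate 2 too, while S100a4, bscl2, GNG3, fabp4b, plin6 and AKR1B1 were lowest in replicate 1. The second cyb561a3 copy ranked 3375th by the same measure, and CYB561D2 and cybrd1 (gene 110501459) ranked 14957th and 16873rd.

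**Figure D5:**
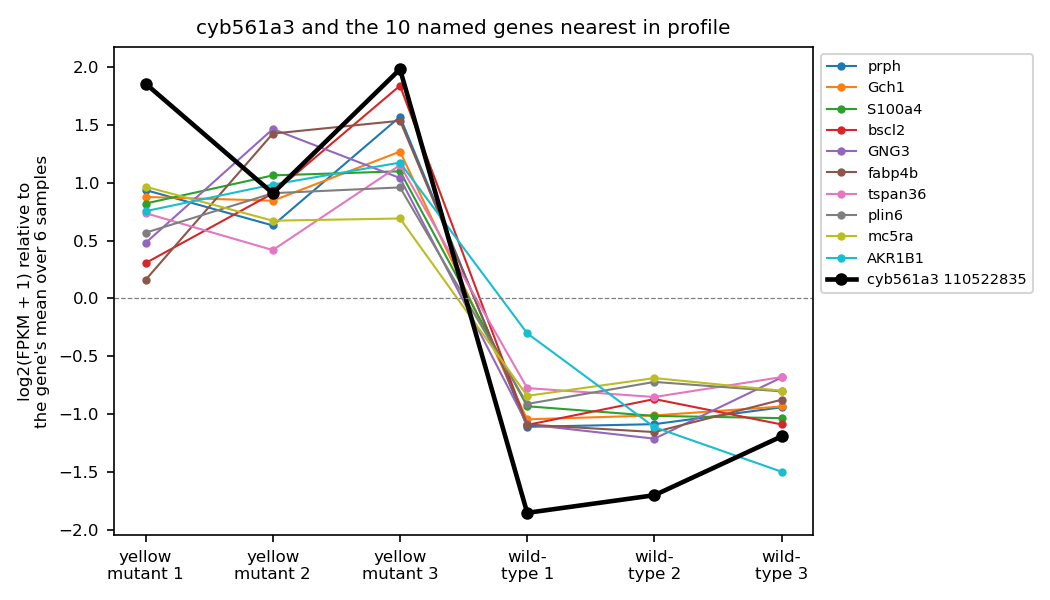
log2(FPKM + 1) relative to each gene's own mean over the 6 samples, for cyb561a3 (gene 110522835, black) and the 10 named genes nearest to it, yellow mutant libraries left of wild-type libraries. Lines only join the points of 1 gene, and all 11 genes lie above their mean in every yellow mutant library and below it in every wild-type library.

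Genes of ascorbate handling and use, metal reduction, iron handling and the lysosome were read as lists. Whether they work with the family in trout skin was not tested. The lists are described by counts and by the median log2 difference beside that of all genes tested, which was 0.01 with 53.0% of genes higher in yellow mutant skin. Over the 5 lists 0 members passed in either direction. The genes named below are single copies with the smallest p of their list. Most of them have other entries of the same symbol in the list, whose values are not given here. A named copy thus does not give the level or direction of its gene as a whole. The STEAP family, another group of membrane metalloreductases that act on iron and copper, had 7 entries, 6 of them tested, with a median of 0.09 and 5 higher. Leaving out yellow mutant replicate 1 or 2 gave medians of -0.0047 and 0.21, and leaving out wild-type replicate 2 gave 0.16. Its smallest p belonged to STEAP4 (gene 110486049), at 3.46, 3.46 and 3.39 FPKM in yellow mutant replicates 1, 2 and 3 and 6.32, 6.44 and 4.01 FPKM in wild-type replicates 1, 2 and 3. The yellow mutant values lay below the wild-type values without overlap, which naming a gene for its small p favours. The difference did not pass (log2 difference -0.55, limma, Benjamini-Hochberg adjusted p = 0.733). This copy was the only 1 of the 6 tested STEAP entries that was lower. The list holds other STEAP4 entries, whose values are not given here, so this copy does not stand for STEAP4 as a whole. steap2 (gene 110535518) had 0.580 ± 0.120 FPKM in yellow mutant and 0.412 ± 0.104 FPKM in wild-type skin (SD, n = 3 each).

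In the ascorbate transport and recycling list, 12 of 18 entries were tested, 6 higher and 6 lower, with a median of 0.01 (-0.049 to 0.096 when 1 library was left out). CYB5R3 (gene 110500004), a cytochrome b5 reductase, had 41.1 ± 5.03 FPKM in yellow mutant and 57.7 ± 10.1 FPKM in wild-type skin, and SLC2A3 (gene 110509082), a transporter of glucose and oxidised ascorbate, had 3.21 ± 0.284 and 2.40 ± 0.487 FPKM in yellow mutant and wild-type skin (SD, n = 3 each). Neither passed (limma, Benjamini-Hochberg adjusted p = 0.822 and 0.862). Among the ascorbate-using oxygenases, which include collagen hydroxylases and oxygen sensors, 32 of 37 entries were tested and 23 of them were lower, with a median of -0.12. egln2 (gene 110503496), a prolyl hydroxylase that marks hypoxia-inducible factor, had 0.559 ± 0.151 FPKM in yellow mutant and 1.13 ± 0.190 FPKM in wild-type skin (SD, n = 3 each, limma, Benjamini-Hochberg adjusted p = 0.733). P3H2 (gene 110534688), a collagen prolyl hydroxylase, had 1.04 ± 0.205 FPKM in yellow mutant and 1.76 ± 0.369 FPKM in wild-type skin (SD, n = 3 each).

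In the list of iron uptake, storage and export, 37 of 47 entries were tested, 23 higher and 14 lower, with a median of 0.09. Leaving out wild-type replicate 2, or either replicate 1 or 3 of the yellow mutant, gave 0.04. slc40a1 (gene 110501553), the iron exporter ferroportin, had 10.8 ± 1.17 FPKM in yellow mutant and 6.45 ± 0.944 FPKM in wild-type skin (SD, n = 3 each). tf (gene 100136035), the iron carrier transferrin, had 4.98, 3.54 and 3.58 FPKM in yellow mutant replicates 1, 2 and 3 and 5.99, 6.71 and 6.47 FPKM in wild-type replicates 1, 2 and 3. Both genes were named for the smallest p of the list, a choice that favours groups without overlap. The list holds other slc40a1 entries, which are not described here. The groups did not overlap for either gene, with slc40a1 higher and tf lower in yellow mutant skin. Neither passed (limma, Benjamini-Hochberg adjusted p = 0.465 and 0.588).

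The lysosome and proton pump list, which covers the compartment of CYB561A3 in mammals, had 97 of 121 entries tested, 63 higher and 34 lower, with a median of 0.10, which was 0.025 without yellow mutant replicate 1. SCARB2 (gene 110523977), a lysosomal membrane receptor, had 2.78 ± 1.06 FPKM in yellow mutant and 6.43 ± 1.68 FPKM in wild-type skin, and PPT1 (gene 110489299), a lysosomal thioesterase, had 7.24 ± 0.962 and 4.72 ± 0.498 FPKM in yellow mutant and wild-type skin (SD, n = 3 each). Neither passed (limma, Benjamini-Hochberg adjusted p = 0.541 and 0.596).

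Markers of melanophores and xanthophores summed to more in each yellow mutant library than in any wild-type library, and those of iridophores did not. Keratinocyte markers also did so, narrowly, with 2269 FPKM in the lowest yellow mutant and 2252 FPKM in the highest wild-type library. The melanophore list (28 entries) summed to 476 to 679 FPKM in yellow mutant and 396 to 425 FPKM in wild-type skin, with 16 of 20 tested entries higher, 0 past the threshold, 2 entries listed at 0 throughout and a median log2 difference of 0.69. The xanthophore list (16 entries) summed to 223 to 247 FPKM in yellow mutant and 139 to 153 FPKM in wild-type skin, with 9 of 14 tested entries higher, 1 past the threshold (Gch1), 0 listed at 0 throughout and a median of 0.28. Of the xanthophore sums, Gch1 (gene 110502330) alone held 49.1 to 66.2 FPKM in yellow mutant and 12.5 to 13.6 FPKM in wild-type libraries, so much of their difference came from 1 entry. The Gch1 call was lost with the replicate block and without wild-type replicate 1, 2 or 3 or yellow mutant replicate 3 (limma, Benjamini-Hochberg adjusted p from 0.0681 to 0.149). The iridophore list (15 entries) summed to 201.0 to 258.7 FPKM in yellow mutant and 195.3 to 203.7 FPKM in wild-type skin, and these ranges overlapped. Only yellow mutant replicate 2, at 201.0 FPKM, lay within the wild-type range. The melanophore sum was lowest in replicate 2 of the yellow mutant libraries, at 476 FPKM against 658 and 679 FPKM in replicates 1 and 3. The part of these lists in the difference at gene 110522835 was not tested. Lists of other cells had medians of 0.17 for iridophores, -0.06 for macrophages, 0.37 for lymphocytes, -0.35 for endothelium, -0.36 for erythrocytes, -0.17 for Schwann cells and nerve, 0.11 for skeletal muscle and 0.20 for keratinocytes. One-sided counts were not limited to pigment cells. Tested entries were higher in 22 of 24 for keratinocytes, 6 of 7 for lymphocytes, 9 of 13 for iridophores and 20 of 29 for skeletal muscle. They were higher in 6 of 13 for macrophages, 3 of 9 for Schwann cells and nerve, 2 of 17 for erythrocytes and 0 of 12 for endothelium.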

How the data were processed

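RNA-Seq of dorsal skin was used, 3 yellow mutant and 3 wild-type samples, and the miRNA-Seq samples of the series were not used here. The authors' deposited table gives, per the file headers, FPKM for each gene and sample, group means, a log2 fold change of those means and an FDR (adjusted p-values). The sources used here do not state its test, the genome build or the counting tool. The submitters' processing notes name TopHat2 2.1.1 and Bowtie2 2.2.8 without saying what each did.

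Genes with at least 0.5 FPKM in at least 3 samples were fitted on log2(FPKM + 1) in R 4.3.3 by limma 3.58.1, two-sided, with trended and robust eBayes and genotype as the single term. Benjamini-Hochberg adjustment ran over all genes in the fit. An exact permutation test of 3 against 3 cannot go below 0.1 and was not used. Relative depth was read from the modal ratio of low values between libraries.

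The family, the lists and the markers were chosen with earlier results of these data known. Named genes are all 8 copies, per list the members past the threshold or else the 2 with the smallest p, and the 10 nearest profiles. From the iron and neuroendocrine lists, 8 entries matched only by spelling (carboxypeptidases and a threonine aldolase) were left out after their names were seen. Of the table's entries, 41894 matched RefSeq by gene identifier.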

Additional observations from a re-analysis of the deposited data

How the results depend on the processing

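The log2 difference of cyb561a3 (gene 110522835), whose choice fixes its direction, was 2.96 to 3.498 when 1 library was left out and 4.15 with a pseudocount of 0.1. Genes called higher numbered 9, and 0 to 10 when 1 library was left out, while genes called lower numbered 0, and 0 to 4. With a filter of 5 FPKM, median-of-ratios scaling or no trend or robust, 1 gene was called lower. Calls higher fell to 0 without wild-type replicate 1 or 3 and without yellow mutant replicate 3, and to 1 without wild-type replicate 2. They numbered 10 without yellow mutant replicate 1 or 2. Fewer samples remained in each of these fits. Same-numbered samples deviated from their group means at correlations of 0.115, -0.213 and 0.158, and differently numbered samples at -0.279 to 0.172. With deviations taken within groups of 3 samples, these values cannot tell whether the numbers pair the samples. With the replicate block 0 genes were called higher. In 0 of these settings did a tested copy other than gene 110522835 pass. When 1 library was left out, signs turned for cybrd1 (gene 110501459, from -0.29 to 0.018), CYB561D2 (from -0.18 to 0.0029), CYB561 (gene 110486400, from -0.039 to 0.27) and Cyb561d1 (from -0.045 to 0.17). Among list medians, the oxygenases stood at -0.18 with a pseudocount of 0.1, and the ascorbate list at -0.049 to 0.096 when 1 library was left out. The iron list stood at 0.11 with that pseudocount, at 0.044 with the 5 FPKM filter, at 0.042 with no filter and at 0.040 to 0.099 when 1 library was left out, where the STEAP list ran from -0.0047 to 0.21 and the lysosome list from 0.025 to 0.13. The cause of these moves was not tested. For levels under 1 FPKM the number of fragments behind a value is unknown.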
